A study of Mus musculus with 20 samples.

Results

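In mouse embryonic stem cells (mESCs) that lack Maz and still hold CTCF, the called binding sites of CTCF were set against those of the cohesin subunit RAD21. The chromatin immunoprecipitation with sequencing (ChIP-seq) peak list of CTCF held 26053 peaks and that of RAD21 held 20872, which together made up 46925 of the 136043 peaks in the 12 lists of the series. A peak of one list was called shared when it overlapped a peak of the other by at least 1 bp, and otherwise CTCF-only or RAD21-only. By that rule 17377 CTCF peaks and 17376 RAD21 peaks were shared, 8676 peaks were CTCF-only and 3496 were RAD21-only.

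The cells were mESCs of the E14 line, kept with LIF and 2i inhibitors. In all conditions of the series CTCF was fused to a degron, which leads to its breakdown on treatment with auxin. Untreated parental cells (WT), parental cells after auxin (ΔCTCF), untreated cells of the same line with Maz knocked out (ΔMAZ) and the knockout after auxin (ΔCTCF/ΔMAZ) were each profiled with antibodies to CTCF, MAZ and RAD21. The auxin libraries were taken at 2 days. Both lists compared here came from untreated ΔMAZ cells, and their titles carry the same knockout name, so the knockout is modelled by a single line. Each antibody had 1 list in each condition. There was thus no replicate error for any value, and every interval below is a Wilson 95% interval over peaks that covers counting error only. The MAZ lists of the knockout cells held 33 peaks each, against 6265 for MAZ in WT.

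CTCF is a zinc finger protein that binds a long DNA motif with a direction. Cohesin is a ring complex, of which RAD21 closes the ring, and it draws out chromatin loops by extrusion until it is stopped, most often at CTCF. MAZ is another zinc finger protein that binds G-rich sequence, often at promoters, and has been described as an insulator that acts beside CTCF. Cohesin is also loaded and found at active promoters and enhancers that hold no CTCF.

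Windows of 50 bases on either side of the summits of the strongest peaks show what the classes look like in sequence. They are read from the plus strand of RefSeq GRCm38, the build the peak lists use under the name mm10. Capitals mark a match to the CTCF core searched for here, CCANNAGNNGGC, or to the MAZ core, GGGGAGGG, on either strand. The 3 strongest shared CTCF peaks with a CTCF core lay between genes, at chr9:111289992-111290092 (nearest start site that of Epm2aip1), chr1:181888936-181889036 (Gm5533) and chr5:120102900-120103000 (Rbm19), with cores on the minus, plus and minus strand. They are shown because they carry the motif in its plainest form.
Shared site near Epm2aip1: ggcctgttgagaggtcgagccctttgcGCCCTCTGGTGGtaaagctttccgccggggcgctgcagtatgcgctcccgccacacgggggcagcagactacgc
Shared site near Gm5533: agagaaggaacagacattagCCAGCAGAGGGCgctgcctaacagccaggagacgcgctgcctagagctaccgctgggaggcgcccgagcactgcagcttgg
Shared site near Rbm19: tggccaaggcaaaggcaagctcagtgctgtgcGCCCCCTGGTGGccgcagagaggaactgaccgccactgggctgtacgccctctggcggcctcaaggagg

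The 3 strongest CTCF-only peaks whose window touched no untranslated region lay just upstream of protein-coding genes, at chr9:20898633-20898733 (Eif3g), chr4:145195035-145195135 (Vps13d) and chr15:101283888-101283988 (Atg101). None of their windows held the CTCF core in these letters, and the Atg101 window held a MAZ core on the plus strand.
CTCF-only, Eif3g promoter: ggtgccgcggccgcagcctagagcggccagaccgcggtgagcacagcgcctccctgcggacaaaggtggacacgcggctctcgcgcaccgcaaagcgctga
CTCF-only, Vps13d promoter: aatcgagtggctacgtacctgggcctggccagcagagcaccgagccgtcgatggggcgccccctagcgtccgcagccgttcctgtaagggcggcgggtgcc
CTCF-only, Atg101 promoter: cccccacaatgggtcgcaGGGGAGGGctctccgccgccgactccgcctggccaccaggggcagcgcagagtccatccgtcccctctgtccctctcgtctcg

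The 3 strongest RAD21-only peaks that could be shown lay in an intron of Phldb2 at chr16:45757029-45757129, between genes at chr5:91308015-91308115 with Gm19619 nearest, and in an intron of Map7d2 at chrX:159442284-159442384. The Phldb2 and Map7d2 windows each held a CTCF core on the plus strand although no CTCF peak was called there in these cells.
RAD21-only, Phldb2 intron: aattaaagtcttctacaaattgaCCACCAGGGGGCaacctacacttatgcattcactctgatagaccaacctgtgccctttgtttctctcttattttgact
RAD21-only, near Gm19619: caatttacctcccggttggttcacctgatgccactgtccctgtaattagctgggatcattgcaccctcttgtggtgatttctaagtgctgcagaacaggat
RAD21-only, Map7d2 intron: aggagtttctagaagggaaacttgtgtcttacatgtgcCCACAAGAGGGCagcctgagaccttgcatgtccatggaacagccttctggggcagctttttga

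The 3 strongest RAD21-only peaks that overlapped a MAZ peak of WT and whose window touched no untranslated region are the last set. They lay at chr17:72836219-72836319 in the promoter of Ypel5, at chr3:21936097-21936197 between genes with Gm43674 nearest, and at chr3:101110531-101110631 in the promoter of Ptgfrn. Neither core was found in these 3 windows in the letters searched.
RAD21-only with MAZ, Ypel5 promoter: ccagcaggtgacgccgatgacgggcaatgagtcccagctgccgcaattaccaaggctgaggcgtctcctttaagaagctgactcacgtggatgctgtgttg
RAD21-only with MAZ, near Gm43674: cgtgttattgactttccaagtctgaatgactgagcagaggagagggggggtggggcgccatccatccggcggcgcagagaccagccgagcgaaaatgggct
RAD21-only with MAZ, Ptgfrn promoter: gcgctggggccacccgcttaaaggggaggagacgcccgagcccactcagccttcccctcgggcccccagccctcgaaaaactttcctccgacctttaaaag

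To ask how far cohesin and CTCF were found at the same places without MAZ, the lists were joined into 29526 sites. Both proteins were called at 17354 of them (58.8%), CTCF alone at 8676 (29.4%) and RAD21 alone at 3496 (11.8%). Of the CTCF peaks 66.7% (66.1 to 67.3) met a RAD21 peak, and of the RAD21 peaks 83.3% (82.7 to 83.8) met a CTCF peak. Nearly every shared peak had 1 partner, since only 22 and 23 shared peaks, by CTCF and by RAD21, overlapped more than 1 peak of the other list. The same split in WT gave 66.3% (65.8 to 66.9) of CTCF peaks and 86.0% (85.5 to 86.4) of RAD21 peaks.

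The lists were not equally deep. At the summits, the median read pileup was 18 for CTCF and 28 for RAD21, and the median background was 0.482 and 1.77 reads. By an index of relative depth, the lowest background over the smallest peak width, the RAD21 library was 3.24 times as deep as the CTCF library. What part the depths play in the sizes of the classes was not tested.

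Sharing rose with strength in both lists. Peaks were ranked by fold enrichment, the pileup over the local background with 1 added to each, into 5 equal groups within their own list. From the weakest to the strongest group, 24.4%, 49.5%, 75.3%, 88.9% and 95.4% of CTCF peaks met a RAD21 peak. For RAD21 peaks the shares that met a CTCF peak were 45.6%, 79.0%, 93.3%, 98.5% and 99.8%. The strongest RAD21 group, with fold enrichment from 18.7 to 92.7, thus held 8 RAD21-only peaks among 4174. The median fold enrichment was 16.2 for shared and 6.92 for CTCF-only peaks in the CTCF list. In the RAD21 list it was 11.4 for shared and 5.40 for RAD21-only peaks. The median RAD21-only peak stood at percentile 14.7 of its list and the median CTCF-only peak at percentile 21.4.

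**Figure D1:**
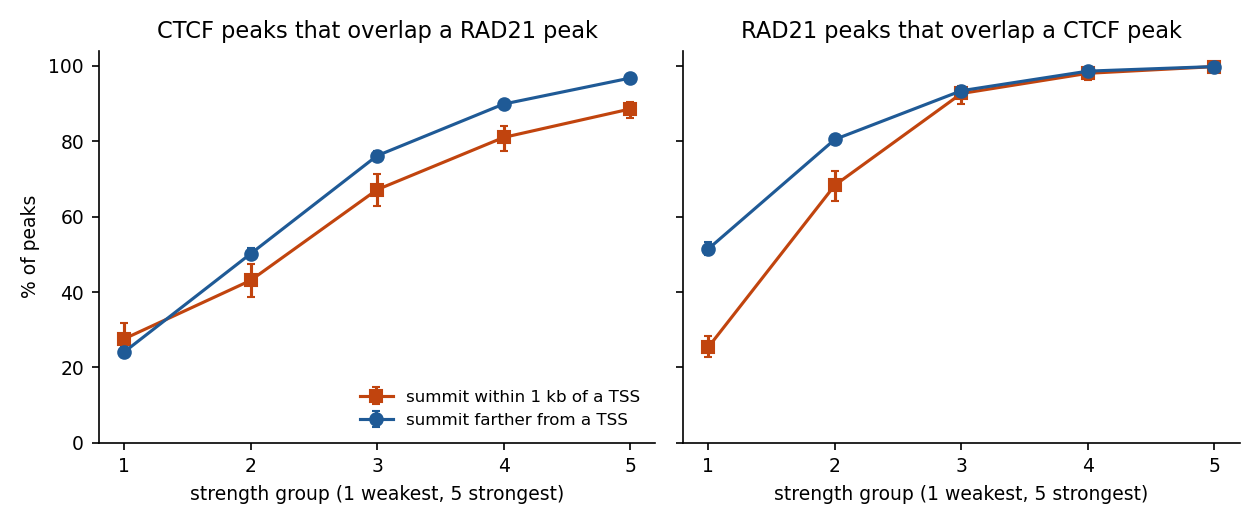
Share of CTCF peaks that overlap a RAD21 peak (left) and of RAD21 peaks that overlap a CTCF peak (right) in ΔMAZ, in % of peaks, over 5 strength groups of fold enrichment, for summits within 1 kb of a transcription start site (TSS) and farther away. Points are shares and bars are Wilson 95% intervals. In the weakest RAD21 group the share was 25.4% near a TSS and 51.4% elsewhere.

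In some strength groups place and motif split the peaks further. In the strongest CTCF group 96.8% (96.2 to 97.2) of peaks away from a TSS met RAD21, against 88.6% (86.3 to 90.5) within 1 kb of a TSS, while in the weakest the values were 24.0% (22.9 to 25.3) and 27.6% (23.7 to 31.7). In the weakest RAD21 group the share that met CTCF was 51.4% (49.7 to 53.1) away from a TSS and 25.4% (22.7 to 28.3) near one, whereas in the middle group it was 93.4% and 92.7%. A CTCF core within 50 bp of the RAD21 summit went with a higher share at the weak end, where 82.2% (79.6 to 84.6) of the weakest RAD21 peaks with a core met CTCF and 35.7% (34.1 to 37.4) of those without one did. For CTCF peaks the core made less difference, with 27.0% (24.9 to 29.2) and 23.2% (21.8 to 24.6) shared in the weakest group.

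Where both proteins were called, their summits lay close together, and at most sites with a single CTCF core the RAD21 summit was downstream along the motif. The distance between summits had a median of 32 bp, with quartiles at 17 and 49 bp, over 17377 shared CTCF peaks. It was at most 50 bp at 77.3% of them and at most 100 bp at 98.1%. The overlap rule itself limits this distance, at median widths of 304 bp for shared CTCF and 303 bp for shared RAD21 peaks. The median fell from 36 bp in the weakest CTCF group to 30.5 bp in the strongest.

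The direction was read at 8024 shared sites with exactly 1 CTCF core in the CTCF window, taking the core letters 5′ to 3′ as forward. The RAD21 summit lay a median of 30 bp downstream of the CTCF summit, with quartiles at 13 and 45 bp. It was downstream at 7024 of the 7955 sites where the summits differed, or 88.3% (87.6 to 89.0). The CTCF summit itself lay a median of 9.5 bp upstream of the centre of the core and the RAD21 summit 21.5 bp downstream of it. The share downstream was 87.5% (86.4 to 88.5) for cores on the plus strand and 89.1% (88.1 to 90.0) for cores on the minus strand, so it followed the motif and not the chromosome. It was 79.2% (75.1 to 82.7) in the weakest CTCF group and 92.6% (91.5 to 93.6) in the strongest.

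**Figure D2:**
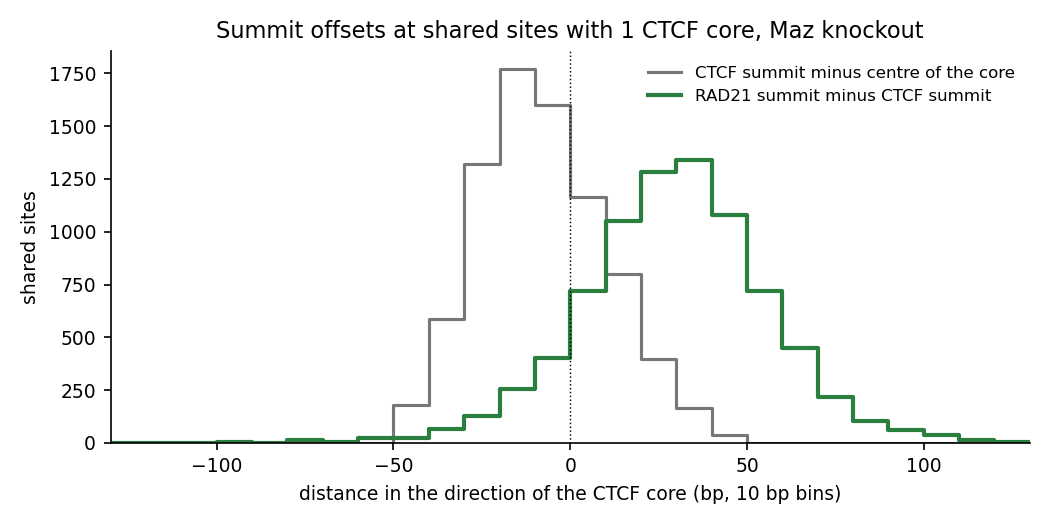
Number of shared sites (vertical axis) by summit distance in bp along the direction of the CTCF core (horizontal axis, 10 bp bins), for 8024 shared sites of ΔMAZ with 1 core. The green line is the RAD21 summit relative to the CTCF summit, with a median of 30 bp, and the grey line is the CTCF summit relative to the centre of the core, which the search window limits to 50 bp on either side.

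The same order was seen in other lists of the series. In WT the RAD21 summit lay a median of 27 bp downstream, at 85.2% (84.4 to 86.0) of sites. In ΔCTCF/ΔMAZ cells, at the 916 pairs called after auxin, the median was 30 bp and the share downstream 84.3% (81.8 to 86.5).

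At shared sites the heights of the peaks of both proteins went together in part. Spearman's rho between CTCF and RAD21 fold enrichment was 0.529 over 17377 shared CTCF peaks, given as a description, since the sites share the same pair of libraries. The median RAD21 fold enrichment was 6.85, 7.72, 9.65, 12.8 and 18.4 from the weakest to the strongest CTCF group. Of 4970 shared peaks in the strongest CTCF group, 165 had a RAD21 peak of the weakest RAD21 group. The reverse, a weakest CTCF peak under a strongest RAD21 peak, was seen at 17 of 1270.

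**Figure D3:**
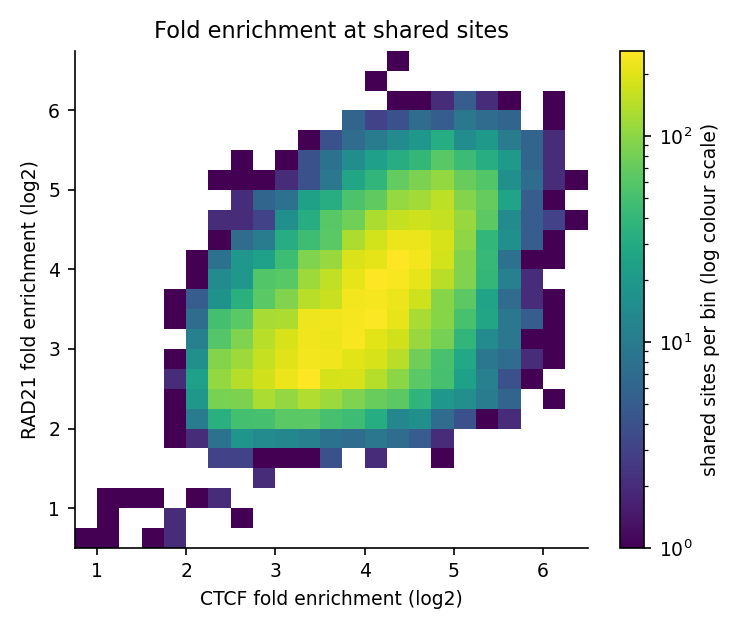
Log2 fold enrichment of the CTCF peak (horizontal) and of its RAD21 peak (vertical) at 17377 shared sites of ΔMAZ, counted in squares of 0.25 log2 units with a log colour scale. The cloud rises from lower left to upper right, with a Spearman's rho of 0.529.

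The strongest shared sites show how uneven RAD21 can be under tall CTCF peaks. The intergenic site nearest Epm2aip1, on chromosome 9 from 111289853 to 111290240, had the tallest CTCF peak, with a fold enrichment of 82.4, and a RAD21 peak of 22.8. The site nearest Gm5533, a long noncoding RNA gene, had a CTCF fold enrichment of 74.1 and a RAD21 peak of 64.5. In contrast, the peak 58 bp upstream of the TSS of Psmd6, a proteasome subunit gene, had 73.7 for CTCF and 5.60 for RAD21. The peak in a coding exon of Gdf15, which encodes a stress-induced cytokine, had 73.7 for CTCF and 13.1 for RAD21. At the promoters of Vps18, a subunit of a vacuolar sorting complex, and Erlin2, a protein of the endoplasmic reticulum, CTCF stood at 72.0 and 70.6 and RAD21 at 38.2 and 39.0. The Vps18 and Erlin2 peaks also overlapped a MAZ peak of WT. So did the peak at the promoter of Kdm3b, with 72.4 for CTCF and 6.76 for RAD21.

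CTCF-only peaks were weak for the most part, and the share of them at promoters rose with strength. Over all 8676 of them 11.3% (10.7 to 12.0) had a summit within 1 kb of a TSS, against 10.7% of the shared peaks. From the weakest to the strongest CTCF group that share rose from 8.80% to 10.4%, 12.4%, 17.7% and 41.2% of the CTCF-only peaks. In the strongest group it rested on 99 of 240 peaks, with an interval of 35.2 to 47.6, so most of them lay elsewhere. Among shared CTCF peaks the share near a TSS was 10.4% in the weakest and 15.4% in the strongest group. Of the 10 strongest CTCF-only peaks, 9 lay within 1 kb of a TSS and the remaining peak lay in an intron of Pla2g5, while 5 of the 10 strongest shared peaks lay within 1 kb of a TSS. The CTCF fold enrichment was 56.2 at Eif3g, a translation initiation factor, and 53.2 at Vps13d, a lipid transfer protein. It was 53.0 at Atg101, an autophagy factor, 49.9 at Crls1, the cardiolipin synthase, and 48.5 at Dnajc11, a mitochondrial chaperone. These 5 peaks were called in the CTCF list of WT too, with fold enrichments from 35.0 at Vps13d to 49.3 at Dnajc11, and none of them met a RAD21 peak of WT. Values of different lists are not on a common scale.

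The CTCF core was found within 50 bp of the summit of 37.9% (36.9 to 38.9) of CTCF-only peaks and 46.5% (45.7 to 47.2) of shared CTCF peaks. In windows 1 kb away on either side it was found beside 1.01% of CTCF-only and 1.05% of shared peaks. The order varied with strength. From the weakest to the strongest CTCF group 29.8%, 44.1%, 49.1%, 41.8% and 32.5% of CTCF-only peaks held a core, and 34.3%, 41.8%, 47.3%, 50.2% and 47.8% of shared ones. CTCF-only windows had a median of 49.5% G and C, and shared windows 51.5%.

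Of the CTCF peaks of ΔMAZ 86.7% overlapped a CTCF peak of WT, but only 67.2% (66.2 to 68.2) of the CTCF-only peaks did. The shares among CTCF-only peaks rose from 43.4% in the weakest group to 100% of 240 in the strongest. Of CTCF-only peaks, 4456 (51.4%) were CTCF-only in WT as well, 1373 (15.8%) met RAD21 in WT and 2847 (32.8%) had no CTCF peak there. After auxin in the knockout, where 9.72% of all CTCF peaks were still called, the share was 0.934% (0.752 to 1.16) for CTCF-only peaks and 14.1% for shared CTCF peaks. Split by strength, the shares of CTCF-only and shared peaks were 0.558% (0.369 to 0.844) and 1.02% (0.599 to 1.74) in the weakest group, where the intervals met. They were 0.544% (0.264 to 1.12) and 1.89% (1.50 to 2.36) in the middle group, and 16.2% (12.1 to 21.4) and 39.0% (37.6 to 40.3) in the strongest. A MAZ peak of WT lay on 1.87% of all CTCF peaks and on 1.72% (1.47 to 2.01) of the CTCF-only peaks. By strength the classes differed, with 12.1% (8.55 to 16.8) of CTCF-only and 3.58% (3.10 to 4.14) of shared peaks in the strongest group and 0.837% (0.597 to 1.17) and 1.81% (1.21 to 2.70) in the weakest.

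RAD21-only peaks lay at promoters more often. Their summits lay within 1 kb of a TSS in 900 of 3496 cases, or 25.7% (24.3 to 27.2), and this interval did not meet those of the other classes. Within 2.5 kb of a TSS the shares were 33.8% of RAD21-only, 19.5% of shared RAD21 and 19.6% of CTCF-only peaks. Introns held 31.2% of RAD21-only, 48.1% of CTCF-only and 40.6% of shared CTCF peaks. The median distance to the nearest TSS was 8197 bp for RAD21-only, 11206 bp for CTCF-only and 10176 bp for shared RAD21 peaks. Among peaks more than 1 kb from a TSS the order turned, with medians of 14878 bp for RAD21-only and 12217 bp for shared RAD21 peaks. Between genes lay 39.2% of RAD21-only, 36.1% of CTCF-only and 44.1% of shared RAD21 peaks. The excess at promoters came from the weak end. In the weakest RAD21 group 30.6% (28.7 to 32.5) of RAD21-only and 12.4% (11.0 to 13.9) of shared peaks lay at promoters.

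**Figure D4:**
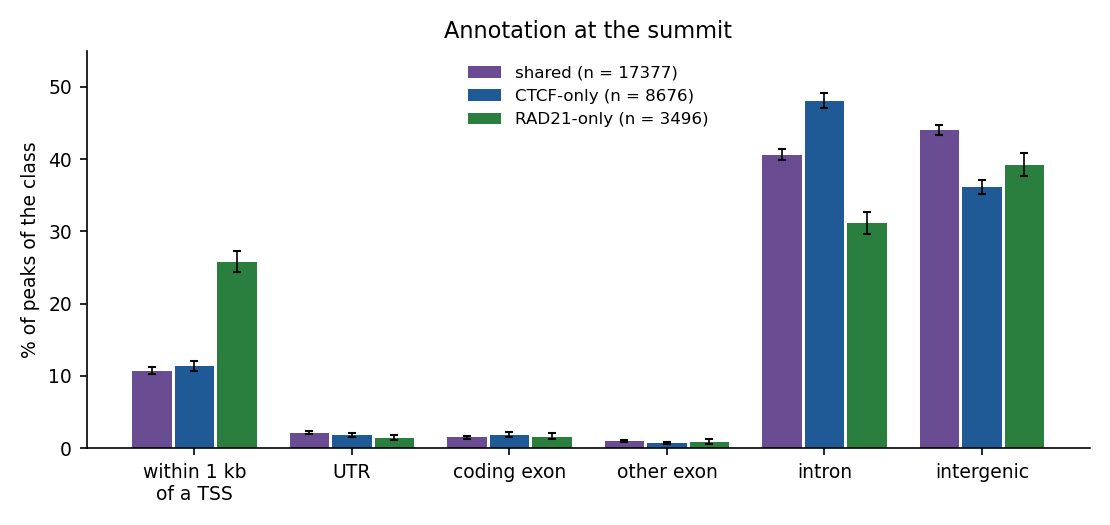
Annotation at the summit for 17377 shared CTCF, 8676 CTCF-only and 3496 RAD21-only peaks of ΔMAZ, as % of the peaks of each class with Wilson 95% intervals. Bars within 1 kb of a TSS stand at 10.7%, 11.3% and 25.7%.

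The promoter peaks and the distal peaks among the RAD21-only set differed in sequence and in their other lists. Windows of the 900 promoter peaks had a median of 65.3% G and C and 8 CpG pairs, and those of the 2596 distal peaks 51.5% and 1 CpG pair. A CTCF core was found in 3.89% (2.81 to 5.36) of the promoter windows and in 15.2% (13.9 to 16.6) of the distal ones. Over all RAD21-only peaks the core was found in 12.3% (11.2 to 13.4), compared with 44.0% (43.3 to 44.7) of shared RAD21 peaks. Past a −log10 q of 5 the former share was 19.7%. For promoters that RAD21 shared with CTCF the share was 29.8% (27.7 to 31.9).

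RAD21-only sites lay far from CTCF peaks in most cases. The nearest CTCF summit was a median of 20734 bp away, and it was within 500 bp for 65 of the 3496 peaks and within 1000 bp for 214.

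Some RAD21-only sites overlapped a CTCF peak of WT. The CTCF library of WT was 1.11 times as deep as that of ΔMAZ by the depth index, and loss was not told apart from a missed call. Of all RAD21 peaks of ΔMAZ 83.8% overlapped a CTCF peak of WT. Of the RAD21-only peaks 718 did, or 20.5% (19.2 to 21.9), and 96.5% of the shared ones. These 718 peaks were taller than the other 2778, with a median fold enrichment of 6.56 against 5.05, and the shares that follow were not split by strength. The CTCF core was found in 32.7% (29.4 to 36.3) of them and in 6.98% (6.09 to 7.99) of the others. Promoters held 9.19% (7.29 to 11.5) of them and 30.0% (28.4 to 31.7) of the others. A RAD21 peak of WT lay on 74.4% (71.1 to 77.4) of them and on 30.8% (29.2 to 32.6) of the others. The RAD21 list of ΔCTCF, which reads cohesin once CTCF is destroyed with MAZ present, met 5.43% (4.00 to 7.34) of them and 46.6% (44.8 to 48.5) of the others.

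The tallest RAD21-only peaks belonged mostly to that kind. Of the 10 with the highest fold enrichment, from 18.5 to 22.7, 8 overlapped a CTCF peak of WT with fold enrichments from 5.33 to 10.8. The peak in an intron of Arhgap26 on chromosome 18 led them at 22.7. The Phldb2 intron followed, where RAD21 stood at 22.4 in ΔMAZ and 23.2 in WT, CTCF at 10.2 in WT, and neither RAD21 list after auxin had a peak. The peak upstream of Neurod1, a neuronal transcription factor gene, had a RAD21 fold enrichment of 20.7 in ΔMAZ and 28.7 in WT and a CTCF peak of 9.56 in WT. The Map7d2 intron, with a core in its window, had RAD21 at 20.8 in ΔMAZ and 16.1 in WT and no CTCF peak in either. All 10 were called for RAD21 in WT, and 1 of them, in an intron of Dytn, was called for RAD21 in ΔCTCF/ΔMAZ, at 5.95.

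To ask whether the places where RAD21 stood without CTCF were places that MAZ had held, the RAD21-only peaks were checked against the MAZ list of WT. A MAZ peak of WT lay on 404 of them, or 11.6% (10.5 to 12.7), on 1.99% (1.79 to 2.20) of shared RAD21 peaks and on 3.59% of all RAD21 peaks of ΔMAZ. In WT, 7.87% (6.94 to 8.91) of 2859 RAD21-only peaks met MAZ and 17.0% (15.6 to 18.4) lay within 1 kb of a TSS. The matching shares of shared RAD21 peaks of WT were not worked out, so a lean in WT cannot be read from these values. The other 3092 RAD21-only peaks met no MAZ peak. With the MAZ list of ΔCTCF the shares were 12.2% and 1.44%. The share depended on how lists were joined, since a reciprocal overlap of 50% gave 4.99% of RAD21-only and 1.23% of shared RAD21 peaks, and keeping only peaks past a −log10 q of 5 gave 6.90% and 1.61%. At promoters 28.7% (25.8 to 31.7) of RAD21-only and 13.2% (11.7 to 14.8) of shared RAD21 peaks met MAZ, and away from promoters 5.62% (4.80 to 6.58) and 0.638% (0.525 to 0.776). In the weakest RAD21 group the shares were 13.7% (12.4 to 15.2) and 2.78% (2.13 to 3.62). In the middle group the intervals met, at 3.58% (1.96 to 6.47) and 1.82% (1.45 to 2.29), and the 10 RAD21-only peaks with MAZ there all lay within 1 kb of a TSS.

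Seen from the MAZ list, 401 of 6265 MAZ peaks of WT (6.40%) met a RAD21-only peak of the knockout, 343 (5.47%) met a shared RAD21 peak and 147 (2.35%) a CTCF-only peak. MAZ strength made little difference, with shares from 5.43% to 7.74% over 5 groups of MAZ fold enrichment. Where a RAD21-only and a MAZ peak met, their summits were a median of 105 bp apart, with quartiles at 49.8 and 183 bp. The MAZ core was found in 8.66% (6.30 to 11.8) of the 404 windows and in 3.34% of windows 1 kb away, and in 1.78% (1.37 to 2.31) of the RAD21-only windows without MAZ.

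The RAD21-only peaks with MAZ were promoter peaks in the main, 258 of 404 or 63.9% (59.1 to 68.4), with a median of 65.3% G and C. RAD21 of WT was called at 30.2% (25.9 to 34.8) of them, against 39.8% of all RAD21-only peaks and 81.5% of all RAD21 peaks. RAD21 of ΔCTCF was called at 74.8% (70.3 to 78.7), against 38.2% and 40.9%, and RAD21 of ΔCTCF/ΔMAZ at 144 of the 404, or 35.6% (31.1 to 40.4), against 15.1% and 22.4%. Among all 900 RAD21-only promoter peaks these shares were 51.3% for ΔCTCF and 21.9% for ΔCTCF/ΔMAZ. The RAD21 library of ΔCTCF was 2.34 times as deep as that of ΔCTCF/ΔMAZ by the depth index, with 17912 against 6400 peaks. What part depth plays in these shares was not tested. At Ypel5 the RAD21 fold enrichment was 13.9 in ΔMAZ and 9.28 in WT, with MAZ at 9.21 in WT and no RAD21 peak in either auxin list. At Tbl1xr1, which encodes a subunit of a corepressor complex, RAD21 was called in all 4 conditions, at 12.4 and 12.2 in parental cells without and with auxin and at 13.5 and 11.8 in the knockout without and with it. Ptgfrn, an inhibitor of a prostaglandin receptor, had 11.8, 15.3, 11.8 and 11.3 in the same order. Dazl, a germ cell RNA-binding protein gene, had 5.81, 5.40, 10.3 and 6.13. The Ypel5 and Dazl peaks also overlapped a CTCF peak of WT, at 6.66 and 6.58. Of these 4 tall peaks all but Ypel5 were thus called for RAD21 with CTCF destroyed and MAZ absent, whereas most of the 404 were not.

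RAD21-only sites were called less often than shared ones in the RAD21 list of WT. Of all RAD21 peaks of ΔMAZ 81.5% were called for RAD21 in WT, but only 39.8% (38.2 to 41.4) of the RAD21-only peaks. Of the latter, 850 (24.3%) were RAD21-only in WT too, 541 (15.5%) were shared with CTCF in WT and 2105 (60.2%) had no RAD21 peak in WT. At promoters 673 of 900 (74.8%) had none. By the depth index the RAD21 library of ΔMAZ was deeper than that of WT. A gain in the knockout was not told apart from a missed call in WT, and the part of depth was not tested. At RAD21-only peaks that WT also called, the median fold enrichment in ΔMAZ was 6.22, and at the rest it was 5.02. In the weakest RAD21 group WT called 24.8% (23.1 to 26.7) of RAD21-only and 60.0% (57.8 to 62.2) of shared peaks, while in the middle group the shares were 91.0% (87.1 to 93.9) and 93.9% (93.1 to 94.6).

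When CTCF was destroyed in the knockout, weak RAD21-only peaks were called again more often than equally weak shared peaks. Over all strengths, 22.4% of the RAD21 peaks of ΔMAZ overlapped a RAD21 peak of ΔCTCF/ΔMAZ, with 15.1% (13.9 to 16.3) of RAD21-only and 23.9% (23.3 to 24.5) of shared peaks. Within the weakest RAD21 group the order was turned, at 15.9% (14.5 to 17.5) of 2270 RAD21-only and 2.20% (1.64 to 2.97) of 1905 shared peaks. It was 14.8% and 3.40% in the second group, 10.4% and 8.42% in the middle group and 9.84% and 25% in the fourth. In the strongest group 1 of 8 RAD21-only peaks and 63.4% of 4166 shared peaks were called. The RAD21 library of ΔMAZ was 1.39 times as deep as that of ΔCTCF/ΔMAZ by the depth index, and the part of depth was not tested. When every list was cut at a −log10 q of 5, the shares fell to 6.98% of all RAD21-only peaks and to 7.81% of those in the weakest group, against 2.27% of the shared ones there. With a reciprocal overlap of 50% the latter pair was 9.77% and 1.61%, and with a gap of up to 500 bp 18.4% and 5.53%.

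**Figure D5:**
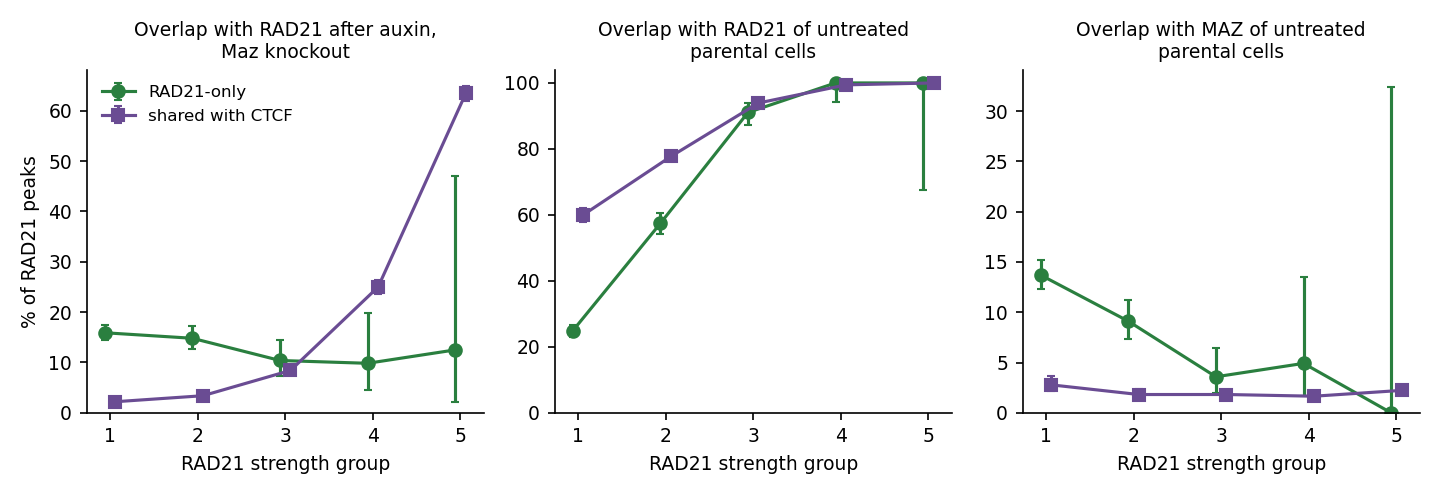
Share of RAD21 peaks of ΔMAZ, in % with Wilson 95% intervals, that overlap a RAD21 peak of ΔCTCF/ΔMAZ (left), a RAD21 peak of WT (middle) or a MAZ peak of WT (right), by strength group (1 weakest, 5 strongest), for RAD21-only peaks and peaks shared with CTCF. On the left the lines cross between the middle and the fourth group, and the strongest group holds only 8 RAD21-only peaks.

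The difference in the weakest group was seen at promoters, with 20.3% (17.5 to 23.5) and 10.2% (6.93 to 14.7), and away from them, with 14.0% (12.3 to 15.8) and 1.08% (0.683 to 1.70). At promoters it depended on the setting, since the intervals met past a −log10 q of 5, with 11.3% (8.44 to 14.9) and 9.09% (6.08 to 13.4), with a gap of up to 500 bp, at 24.2% (21.1 to 27.7) and 20.1% (15.9 to 25.3), and narrowly with a reciprocal overlap of 50%, at 13.6% (11.3 to 16.3) and 6.88% (4.06 to 11.4). Among peaks with a CTCF core the intervals met, at 3.16% (1.36 to 7.19) of 158 RAD21-only and 0.822% (0.377 to 1.78) of 730 shared peaks, and the order turned past a −log10 q of 5, at 0% (0 to 1.59) of 238 and 1.58% (0.945 to 2.64) of 885. It was also turned among the core peaks of the second group, at 1.18% (0.325 to 4.21) of 169 and 3.25% (2.42 to 4.35) of 1322. The same comparison with the RAD21 list of ΔCTCF, where MAZ was present, gave 43.7% (41.7 to 45.8) and 7.56% (6.46 to 8.83) in the weakest group, against 40.9% of all RAD21 peaks, but 5.06% (2.59 to 9.67) and 6.99% (5.35 to 9.07) among those with a core. That library was 2.34 times as deep as the RAD21 library of ΔCTCF/ΔMAZ by the depth index, so the lists differ in depth as well as in MAZ. The part of either was not tested.

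The promoters that RAD21 held without CTCF included those of pluripotency genes. Among 21924 protein-coding genes, 3.43% had a RAD21-only summit within 1 kb of a TSS, 3.14% a CTCF-only one and 5.87% a shared one. Of 35 pluripotency genes 9 (25.7%) had a RAD21-only peak, 2 a shared peak and 1, Sgk1, a CTCF-only peak. MAZ of WT was called at 7 of those 9 promoters, compared with 328 of the 751 protein-coding genes with a RAD21-only peak, and at 45.7% of the whole list, compared with 20.9% of protein-coding genes. The RAD21 fold enrichment was 10.2 at Tbx3, a transcription factor of the naive state, and 7.34 at Jarid2, a cofactor of the Polycomb complex PRC2. It was 5.52 at Mycn, a growth-promoting transcription factor, 5.38 at Tet2, which oxidises methylated cytosine, and 5.14 at Esrrb, a nuclear receptor of self-renewal. The Tbx3 peak overlapped a CTCF peak of WT and the other 4 did not. Of these 5, RAD21 was called in WT at Tbx3 alone, and in ΔCTCF at all but Mycn.

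Ribosomal protein genes leaned to CTCF without RAD21. Of 79 cytosolic ribosomal protein genes, 17 (21.5%) had a CTCF-only peak, 5 a shared peak and 2, Rpl15 and Rpl27a, a RAD21-only peak. Several of these CTCF peaks were tall, with a fold enrichment of 44.6 at Rps3a1, 38.8 at Rpl5, 25.8 at Rpl38 and 24.6 at Rplp0. These 4 were called for CTCF in WT and had no RAD21 peak there, but the Rps3a1 peak met RAD21 peaks of ΔCTCF and ΔCTCF/ΔMAZ and the Rpl5 peak one of ΔCTCF.

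Of 23 genes of cohesin and its regulators, 4 had a shared peak, 2 a CTCF-only peak and 1, Sgo1, a protector of centromeric cohesin, a RAD21-only peak. The CTCF-only peaks were at Esco1, a cohesin acetyltransferase, and Nipbl, the cohesin loader, with fold enrichments of 18.4 and 11.1. Of 20 zinc finger genes related to Maz, 4 had a shared and 4 a RAD21-only peak. The latter were Klf3 at 5.80, Klf9 at 5.41, Klf6 at 5.38 and Klf13 at 5.32, and MAZ of WT was called at Klf3 and Klf6 on the same peak. No gene of this list had a CTCF-only peak, and 0 of 20 allows a share of up to 15.0%, where the limit for a count of 0 is here and below 3 counts of the total and not a Wilson bound.

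Of 39 Hox genes, which set positional identity along the body axis, 5 had a shared, 3 a CTCF-only and 2 a RAD21-only peak. The CTCF peak near the start of Hoxa10 had a fold enrichment of 25.4 without RAD21 in ΔMAZ or WT. Hoxc5 had both kinds within 1 kb, a RAD21-only peak at 4.61 and a CTCF-only peak at 7.53, on chromosome 15 from 103014294 to 103014554 and from 103014700 to 103014973, and the CTCF-only peak there overlapped RAD21 peaks of the other 3 conditions. The RAD21-only peak at Hoxc13 had 6.15 and lay on a MAZ peak of WT. Of 38 silent developmental transcription factor genes, 2 had a shared, 1 a CTCF-only and 3 a RAD21-only peak, the last including Gata2 at 4.66 and Nkx6-1 at 4.25.

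Of 19 immediate early genes, 2 had a RAD21-only peak, Klf10 at 4.35 and Dusp1 at 3.73, both on MAZ peaks of WT, and 3 had a CTCF-only peak, Dusp1 at 12.1, Fosb at 5.54 and Srf at 4.15. None had a shared peak, and 0 of 19 allows a share of up to 15.8%. Of 35 imprinted genes 1 had a shared and 3 a CTCF-only peak, at H13 with 20.8 and at the start shared by Sgce and Peg10 with 9.0. None had a RAD21-only peak, and 0 of 35 allows up to 8.57%. Of 57 clustered protocadherin genes, a family of related genes at which read placement was not checked, 24 (42.1%) had a shared and 17 (29.8%) a CTCF-only peak, both above the shares of all protein-coding genes. None had a RAD21-only peak, and 0 of 57 allows up to 5.26%.

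Along the chromosomes the share of CTCF peaks that met RAD21 was lowest on the X, at 57.9%, and on chromosome 5, at 60.9%. On the other autosomes it ran from 64.0% on chromosome 17 to 70.7% on chromosome 18. The share of RAD21 peaks that met CTCF ran from 78.2% on chromosome 13 to 85.8% on chromosome 9 and was 83.1% on the X. The X held 1.96 shared sites, 1.43 CTCF-only peaks and 0.398 RAD21-only peaks per Mb, the lowest of the 20 chromosomes in each class.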

How the data were processed

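ChIP-seq reads of each library were mapped by the authors to mm10 with Bowtie 2, filtered with SAMtools and called as narrow peaks with MACS at default settings. Whether an input control entered is not given in the sources used here. Scaling by the Drosophila spike-in, or for RAD21 by total reads, was stated for the authors' tracks. The deposited files give a whole-number score, which was not used for any result, a fold enrichment, which is a ratio of pileup to local background with 1 added to each, and −log10 p and −log10 q values. The authors' lists reach down to the q limit of 0.05.

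Of 20 samples, 12 came with a list and 8 were not analysed here. Lists were compared by overlap of at least 1 bp, checked against bedtools 2.31.1 on simulated data. Pileup and background were worked out from the fold enrichment and the −log10 p that the authors deposited, and matched the deposited values within 0.001 for all 136043 peaks. Summits were placed on GENCODE vM21 basic transcripts in the order TSS within 1 kb, UTR, coding exon, other exon, intron, intergenic. Motifs were searched in RefSeq GRCm38 within 50 bp of the summit. Strength groups were 5 equal groups of fold enrichment within a list. Depth as read totals is unknown. No p-value was computed, since each antibody had 1 list per condition. Statistics used Python 3.11.15 and statsmodels 0.14.6.

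The comparison, the gene lists and the named peaks were chosen with earlier results of these data known. The peaks named were the 10 of highest fold enrichment in each class and the 5 highest RAD21-only peaks with and without MAZ, leaving out peaks on the knockout MAZ lists or outside chromosomes 1 to 19 and X (17 shared, 24 CTCF-only and 4 RAD21-only peaks). In each gene list, up to 5 genes were named per class. Some genes that these rules name are not reported here. Sequences were shown for the 3 strongest peaks per set that were not on chromosome 18 and whose window touched no UTR. Genes whose promoters are near-copies can share reads. Alternatives were a reciprocal overlap of 50%, a gap of up to 500 bp, a −log10 q of at least 5, peaks on knockout MAZ lists left out, equal numbers of strongest peaks, the MAZ list of ΔCTCF, other TSS definitions, a 100 bp motif window and strength by −log10 q.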

Additional observations from a re-analysis of the deposited data

How the results depend on the processing

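Of 77 values recomputed under other settings for 15 planned results, 35 stayed within the interval of the reported value and 42 left it, the intervals over so many peaks being narrow. The values for the weakest group below are not in this count. A reciprocal overlap of 50% gave 64.2% of CTCF and 80.1% of RAD21 peaks shared. It gave RAD21-only shares of 4.99% with MAZ, 24.2% near a TSS, 10.6% called after auxin and 15.5% with the core, shared RAD21 shares of 1.23% with MAZ and 22.7% after auxin, and a median CTCF-only rank of 23.5. In the weakest group, the shares after auxin were then 9.77% and 1.61%. A gap of up to 500 bp gave 67.8% and 83.9% shared, MAZ shares of 14.4% and 2.83%, shares after auxin of 16.9% and 24.7%, and 18.4% and 5.53% in the weakest group. A −log10 q of at least 5 gave 71.3% and 85.7% shared, MAZ shares of 6.90% and 1.61%, TSS shares of 18.8% for RAD21-only and 13.1% for CTCF-only peaks, shares after auxin of 6.98% and 22.8%, core shares of 19.7% for RAD21-only and 43.0% for CTCF-only peaks, a median RAD21-only rank of 16.4, and 7.81% in the weakest group. Equal numbers of strongest peaks gave 77.2% of CTCF and 77.3% of RAD21 peaks shared, with 11.8% and 25.5% called after auxin. The MAZ list of ΔCTCF gave 1.44% of shared RAD21 peaks. A TSS distance of 2.5 kb gave 33.8%, 19.5% and 19.6% of RAD21-only, shared RAD21 and CTCF-only peaks, and protein-coding TSS alone 21.8%, 7.20% and 7.77%. A window of 100 bp gave core shares of 15.6%, 49.7% and 43.7% for RAD21-only, shared CTCF and CTCF-only peaks. Leaving out peaks on the knockout MAZ lists gave a median CTCF-only rank of 21.4, and strength by −log10 q a RAD21-only rank of 12.2. Fewer peaks enter under the q limit and fewer pairs under the reciprocal overlap, and the cause of other shifts was not tested.

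In each alternative run for both classes, RAD21-only peaks had the higher share with MAZ and near a TSS and shared RAD21 peaks the higher share after auxin over all strengths. The values for the weakest group were chosen after seeing the data. No paired analysis was possible because each antibody had 1 list in each condition. The part of depth in the sizes of the classes was not tested. A site absent from a list was not detected at the depth of that library.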
